A study of Mus musculus with 12 samples.

Results

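The mammary fat pads described here were set side by side by how much RNA of the epithelial surface protein Epcam they held. Levels are in CPM, a gene's count per 1000000 reads assigned to genes, with the mitochondrial ribosomal RNAs mt-Rnr1 and mt-Rnr2 left out of the total. The sides were chosen by the measured Epcam CPM: the 12 libraries of the series were ranked on it, and the 6 highest (the high side) were compared with the 6 lowest (the low side), so that all 12 of 12 libraries were used. The pads came from female C57BL/6 mice at postnatal day 84, 4 weeks after folic acid supplementation at 5 mg/kg (6 libraries) or 1 mg/kg (6 libraries). Each library held the total RNA of a right thoracic pad frozen whole, so epithelium, fat, vessels, muscle and any lymph node in the pad were sequenced together. An untreated group was not analysed here, and nothing in the labels says that each library came from a separate animal, so the p-values below measure the spread between these libraries. Counts assigned to genes ran from 48165752 to 75299437 reads per library, of which mt-Rnr1 and mt-Rnr2 took 39.2 to 59.5%.

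The virgin mammary gland is a tree of ducts lying in a fat pad. Its ducts have an inner layer of luminal cells, some that sense ovarian hormones and some that can become milk secretory cells, and an outer layer of basal, contractile cells. Epcam, the keratins Krt8 and Krt18 of luminal cells and the keratins Krt14 and Krt5 of basal cells are known markers of these layers. In whole pads, fewer epithelial cells and less RNA per epithelial cell cannot be told apart.

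Sequence upstream of Epcam and of the genes that followed it most closely is shown here because the rest of the description turns on those genes. Closeness was the SD over the 12 libraries of log2 of the gene's CPM plus 0.1 over the Epcam CPM, among genes with a mean of at least 5 CPM. Apart from the added 0.1 and that filter, the measure does not depend on how libraries are scaled. Of the 12 closest genes, 9 had an entry in the RefSeq promoter table (GRCm38.p6), and the 250 bases before each start were searched on both strands for 3 patterns. The windows printed are those of Epcam (chr17:87635729-87635978 on the plus strand), Cdcp1 (chr9:123216039-123216288 on the minus strand), Klc3 (chr7:19404105-19404354 on the minus strand) and Spint1 (chr2:119237110-119237359 on the plus strand), each 5′ to 3′ and ending at the base before the start, with CACCTG or its reverse complement CAGGTG in capitals.
Epcam: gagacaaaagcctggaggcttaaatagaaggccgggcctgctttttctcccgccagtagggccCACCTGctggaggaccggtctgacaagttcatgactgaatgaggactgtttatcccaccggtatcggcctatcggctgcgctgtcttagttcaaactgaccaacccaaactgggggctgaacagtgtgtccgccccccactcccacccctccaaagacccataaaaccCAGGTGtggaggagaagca
Cdcp1: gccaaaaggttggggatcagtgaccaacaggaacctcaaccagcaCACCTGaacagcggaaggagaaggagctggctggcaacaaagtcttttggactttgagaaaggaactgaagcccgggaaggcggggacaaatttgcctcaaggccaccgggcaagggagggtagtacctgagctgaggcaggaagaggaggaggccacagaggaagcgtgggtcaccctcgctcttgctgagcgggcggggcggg
Klc3: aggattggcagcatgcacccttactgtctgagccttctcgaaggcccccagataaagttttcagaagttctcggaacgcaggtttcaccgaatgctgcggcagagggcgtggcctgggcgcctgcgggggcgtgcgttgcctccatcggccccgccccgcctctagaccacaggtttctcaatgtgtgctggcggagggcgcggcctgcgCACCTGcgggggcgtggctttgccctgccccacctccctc
Spint1: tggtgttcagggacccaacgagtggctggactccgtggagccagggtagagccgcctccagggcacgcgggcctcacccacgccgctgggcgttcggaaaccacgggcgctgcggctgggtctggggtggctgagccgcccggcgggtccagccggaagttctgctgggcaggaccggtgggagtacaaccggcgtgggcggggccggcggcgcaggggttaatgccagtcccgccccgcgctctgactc

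The 3 patterns were searched in turn, and each is given. A core of the Grainyhead-like factors, AACCNGTT, was found in 0 of the 9 genes (0%), in 0 of 30 separated genes defined below, and in 2.0% of 27025 genes of the table. A palindrome of the AP-2 factors, GCCNNNGGC, was found in 3 of the 9 genes (33.3%) and in 4 of the 30 (13.3%), against 23.4% of the 11213 genes measured here that have an entry. CACCTG, the E-box bound by the epithelial repressors of the Zeb and Snail families, was the third, and was chosen only after the sequences of Epcam and Ap1m2 had been read. It was found in 5 of the 9 genes (55.6%) and in 13 of the 30 (43.3%), against 18.8% of the genes measured. Because Ap1m2 is 1 of the 9, and Epcam is 1 of the 30, those shares include sequences that led to the choice and describe these windows only. The Epcam window holds it 187 and 19 bases before the start, Cdcp1 205 bases and Klc3 40 bases before, and Spint1 does not hold it. None of the 4 windows printed holds more than 1 of the 3 patterns. A match is a stretch of letters and was not tested as a binding site.

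Epcam fell along the 12 libraries in steps rather than in 2 groups. It was 169.1, 140.7, 127.0, 114.2, 88.71 and 87.46 CPM in the high-side libraries and 76.62, 75.78, 71.29, 42.57, 29.98 and 26.42 CPM in the low-side libraries. The range was 6.4-fold and the side medians were 121 and 56.9 CPM, a 2.12-fold difference that the ranking itself made. The border passed through a small step: the lowest high-side library, 1 mg/kg replicate 1, was 1.14 times the highest low-side one, 5 mg/kg replicate 1. Their exact 95% intervals, which cover counting error only, were 84.39 to 90.61 and 73.38 to 79.97 CPM. Wider steps included those between ranks 9 and 10 (1.67-fold), ranks 10 and 11 (1.42-fold) and ranks 4 and 5 (1.29-fold). Epcam itself lies at chr17:87635979-87651129 (GRCm38, plus strand).

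The keratins followed Epcam in part, and each overlapped between the sides. Krt8 ran from 110 to 200 CPM on the high side (median 152) and from 35.3 to 185 CPM on the low side (median 80.6). Krt18 ran from 140 to 312 CPM (median 217) and from 52.2 to 204 CPM (median 111). Krt14, the basal keratin, ran from 16.0 to 63.2 CPM (median 34.2) and from 6.12 to 24.6 CPM (median 14.4). The libraries that broke the order across the border for the luminal pair were 5 mg/kg replicates 1 and 2. In replicate 1, Krt8 was 128 CPM and Krt18 164 CPM, above both in 1 mg/kg replicates 6 and 1. In replicate 2, Krt8 was 2.60 times Epcam, while it was 1.14 to 1.67 times Epcam in the other libraries. Krt14 was highest in 5 mg/kg replicate 4. The most RNA of the cornified epidermal genes Krt10 (12.3 and 48.4 CPM) and Dmkn (9.04 and 30.5 CPM) was held by 5 mg/kg replicates 2 and 4. The part of epidermal RNA in the keratin values was not tested.

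**Figure D1:**
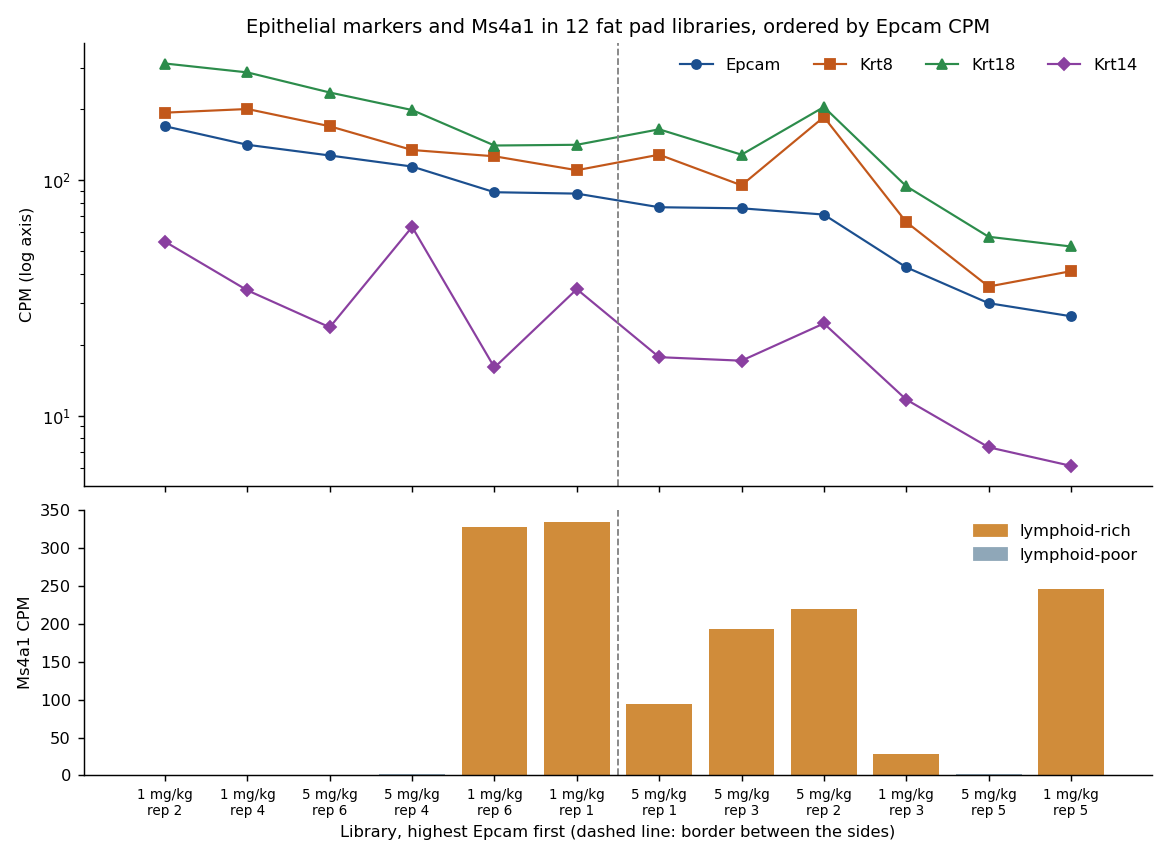
CPM of Epcam, Krt8, Krt18 and Krt14 (upper panel, log axis) and of the B cell gene Ms4a1 (lower panel) in the 12 libraries, ordered from the highest to the lowest Epcam, with a dashed line at the border between the sides. Krt8 and Krt18 rise against the order in 5 mg/kg replicate 2, and Ms4a1 is tall in 2 high-side and 5 low-side libraries.

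More low-side than high-side libraries were rich in lymphoid RNA. Ms4a1, which encodes the B cell surface protein CD20, fell into 7 lymphoid-rich libraries at 28.6 CPM or more and 5 lymphoid-poor libraries at 2.03 CPM or less. The high side held 2 rich and 4 poor libraries, and the low side 5 rich and 1 poor, a split that was not tested. The 2 highest Ms4a1 values, 334 CPM in 1 mg/kg replicate 1 and 327 CPM in 1 mg/kg replicate 6, were both on the high side. Epcam had a median of 75.8 CPM in the rich libraries (26.4 to 88.7) and 127 CPM in the poor ones (29.98 to 169), so the ranges overlapped. All 12 of 12 B cell genes and 12 of 12 T cell genes were lower by side medians on the high side. The summed B cell list ran from 15.8 to 2570 CPM on the high side (median 21.4) and from 22.0 to 1830 CPM on the low side (median 1220), so both sides held libraries at each extreme. The summed T cell list ran from 14.8 to 1660 and from 10.5 to 1220 CPM. Of the node stroma list, Ccl21a had 0 CPM in every library. The part of lymphoid RNA in the differences between the sides was not tested, and values within the lymphoid-rich and lymphoid-poor libraries stand beside them below.

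The genes closest to Epcam kept a nearly constant ratio to it from the highest library to the lowest. Ripk4, a kinase needed for epidermal differentiation, was first, with an SD of 0.116 in log2(gene / Epcam), and it stayed between 0.109 and 0.146 reads per Epcam read in the 12 libraries. Cdcp1, a transmembrane glycoprotein, had an SD of 0.139, and Chmp4c, a subunit of a membrane-scission complex, 0.142. Esrp1, an epithelial splicing regulator, had 0.146, and its CPM fell from 32.5 to 3.75. The others were Klc3, a kinesin light chain, at 0.154, Galnt3, which starts mucin-type glycosylation, at 0.158, and Spint1, an inhibitor of the surface protease matriptase, at 0.161. Gata3, a transcription factor of luminal cells, had 0.163. Nectin4, Kcnk1, Inhbb and Ap1m2 completed the 12 at 0.168, 0.171, 0.178 and 0.18. The median over the 11940 genes with a mean of at least 5 CPM was 0.866. The 12 were picked for this measure, so the values describe them.

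**Figure D2:**
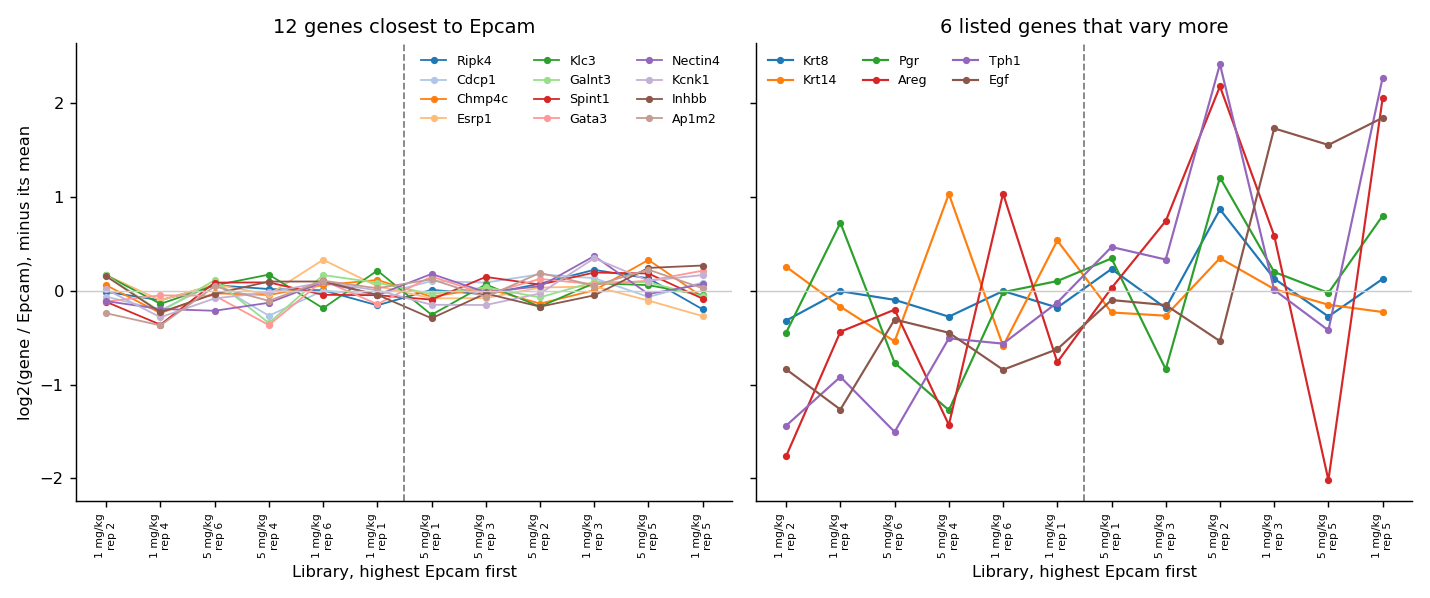
log2 of each gene's count over the Epcam count, minus its mean over the 12 libraries, for the 12 genes closest to Epcam (left) and for 6 listed genes (right). The 12 lines on the left stay close to 0 along the order, while Areg and Tph1 peak in 5 mg/kg replicate 2 and 1 mg/kg replicate 5 and Egf is high in the 3 libraries lowest in Epcam.

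Some epithelial genes departed from Epcam in few libraries. Areg, an epidermal growth factor receptor ligand made by hormone-sensing cells, stood at 0.798 reads per Epcam read in 5 mg/kg replicate 2 and 0.73 in 1 mg/kg replicate 5, and at 0.0437 to 0.362 in the other libraries. Tph1, a serotonin synthesis enzyme, stood at 0.771 and 0.696 in the same libraries and at 0.051 to 0.199 in the others. Pgr, the progesterone receptor, was also highest there, at 1.07 and 0.807, with 1 mg/kg replicate 4 next at 0.768. These 3 genes therefore shared 2 libraries rather than a side, although both libraries are on the low side. Tnfsf11, the cytokine RANKL, ran from 0.0396 to 0.279 reads per Epcam read in the 7 lymphoid-rich libraries and from 0.000594 to 0.00328 in the 5 poor ones. RANKL is also made by lymphoid cells, and the part of each source was not tested.

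Across genes, the sides differed in few. A gene was called separated when every library of one side was above every library of the other and the side medians were at least 2-fold apart, among genes with a mean of at least 1 CPM. Separated and higher on the high side were 58 of 15716 genes (0.369%), Epcam among them, and 0 of 15716 were separated and lower (0%). Without overlap at any fold, 247 genes were higher (1.57%) and 4 lower (0.0255%): Shox2, Ddah1, Ybx1 and Gm45133, named after their values were seen. Because Epcam ranked the libraries, these counts describe the sides and carry no test. By medians alone, 315 genes were at least 2-fold higher and 1082 at least 2-fold lower, and 52.0% of all genes were higher.

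The count of 58 depended on how reads were scaled, on the gene that ranked the libraries and on single libraries. Scaled by TMM effective library sizes, 14 genes were separated, 6 of them among the 58, and scaled by DESeq2 size factors, 12 were, 3 of them shared. Both scalings moved 5 mg/kg replicate 1 to the high side. Ranked by Krt8 or by Krt18, which exchange 2 libraries between the sides, 7 genes were separated and 0 were shared. Ranked by Krt14 or by the geometric mean of the 4 markers, 15 were separated and 0 shared. On the same CPM, a gene separated for a given split into sides of 6 cannot be separated for a different one. The 0 shared genes under these rankings were therefore fixed in advance and carry no information. Without the 2 libraries at the border the count was 234. Left out one at a time, 5 mg/kg replicates 1, 2, 3 and 4 gave 144, 99, 129 and 123, and 1 mg/kg replicate 1 gave 123. Leaving out 5 mg/kg replicate 5 gave 33 and 1 mg/kg replicate 5 gave 31, these being the libraries lowest in Epcam.

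**Figure D3:**
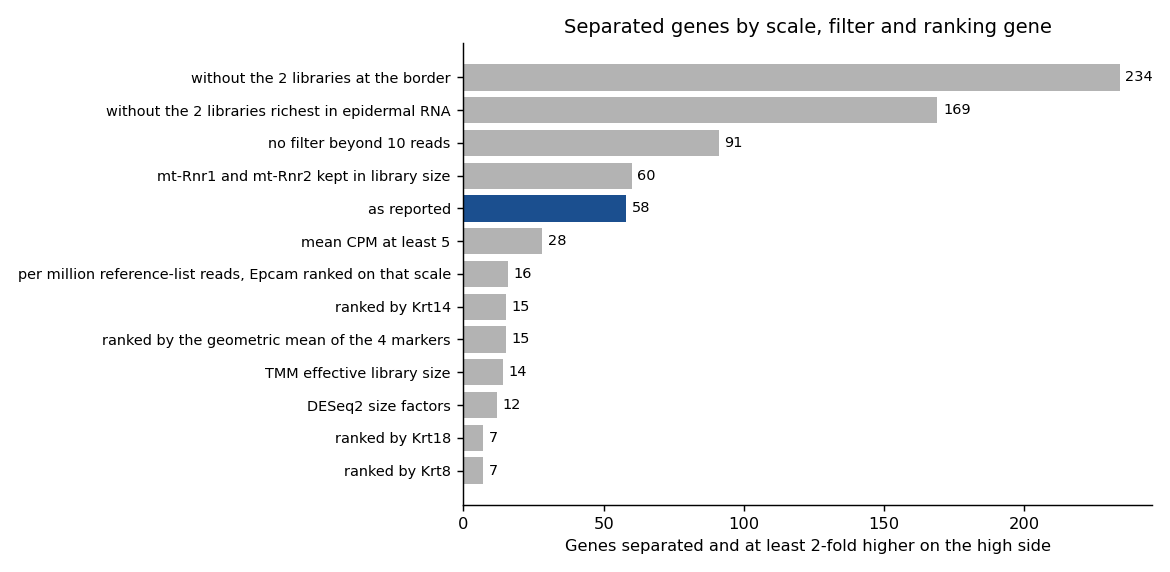
Number of genes separated and at least 2-fold higher on the high side (bars, from 0) as reported and under other scales, filters, ranking genes and sets of libraries. The count is 58 as reported, 7 when Krt8 or Krt18 ranks the libraries and 234 without the 2 libraries at the border.

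The 12 separated genes with the largest folds are known for varied functions. Snorc, a proteoglycan, led: it was 2.03 to 5.53 CPM on the high side (median 3.99) and 0.441 to 1.41 CPM on the low side (median 0.824), a log2 difference of 2.15 on the scale of CPM plus 0.1. Gabrp, a subunit of the GABA-A receptor, was 5.13 to 13.7 CPM (median 6.99) against 1.05 to 3.86 CPM (median 1.87), a log2 difference of 1.85. The groups did not overlap for either, as the call requires. Wfdc18, of the whey acidic protein family, was 20.3 to 31.2 CPM against 3.12 to 19.7 CPM. Ltf, the iron-binding milk protein lactoferrin, was 77.2 to 158 CPM against 11 to 73.3 CPM. Both had a log2 difference of 1.80, and in both the highest low-side library, 5 mg/kg replicate 3, lay just under the high side. The others were Ttll10, of the tubulin tyrosine ligase-like family (log2 difference 1.62), the muscarinic receptor Chrm1 (1.59), the transcription factor Tfap2a (1.5), Itprid1 (1.46), the sodium-glucose transporter Slc5a1 (1.43), Clca3a2 (1.42), the kainate receptor subunit Grik3 (1.36) and the choline transporter Slc5a7 (1.35). Clca3a2 has close paralogs, and Ttll10 overlaps the genes of Mir200a, Mir200b and Mir429, so the counts of both are uncertain. Just inside the fold limit lay Prss8 and Muc20, each at a log2 difference of 1.0. Outside it, Ripk4 was at 0.99 with no overlap between the sides.

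**Figure D4:**
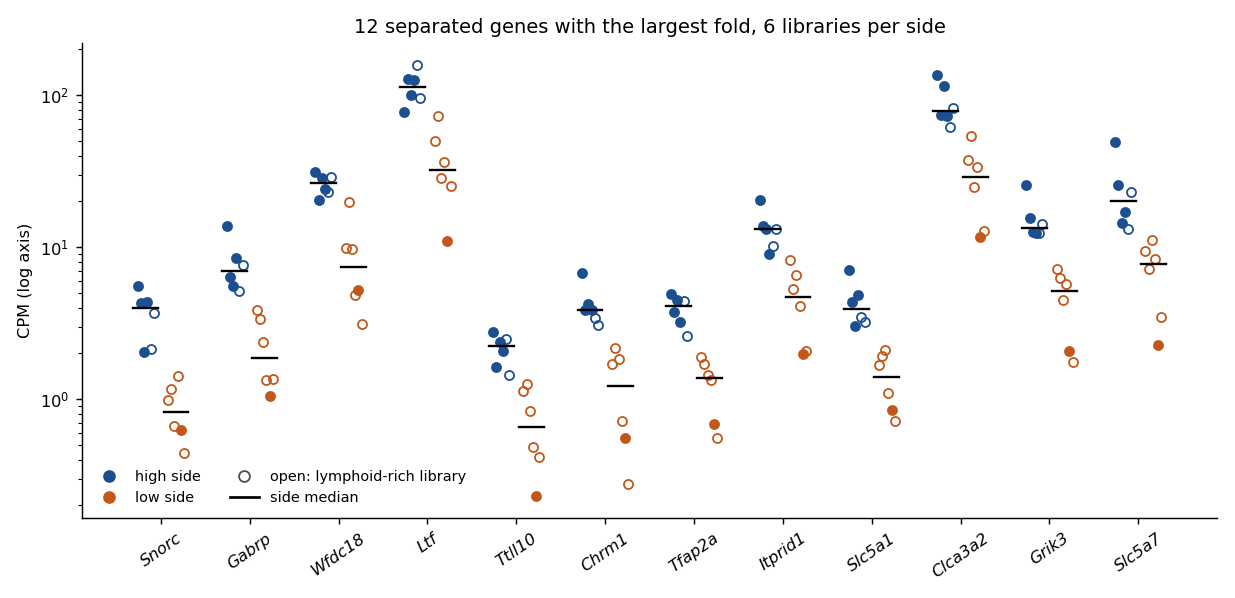
CPM on a log axis of the 12 separated genes with the largest folds, 1 point per library, high side at the left and low side at the right of each gene, with a line at each side median. Open points are lymphoid-rich libraries, and they lie among the filled points on the high side.

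All 58 genes were also higher in the high-side libraries within each dose and within each lymphoid class. The median log2 difference of the 58 was 1.0 within 5 mg/kg (2 high-side against 4 low-side libraries), 1.7 within 1 mg/kg (4 against 2), 0.9 within the lymphoid-rich libraries (2 against 5) and 2.2 within the lymphoid-poor libraries (4 against 1). Over all genes the same medians were -0.0023, 0.23, 0.23 and 0.34. The direction within each class follows from the separation and is no further evidence, and the lymphoid-poor class had 1 low-side library.

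Genes of the epithelial lists were higher on the high side in most cases. Of 114 distinct measured genes on 8 lists, 105 were higher by side medians, 12 were separated (10.5%, against 0.369% of all genes) and 31 did not overlap (27.2%, against 1.57%). Their median log2 difference was 0.79, against 0.016 over all genes. The lists were picked with Epcam in mind, and Epcam is on one of them.

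Among general epithelial genes, 22 of 22 were higher, with a median log2 difference of 0.93, and the separated ones included Epcam, Esrp1, Marveld3 and Prss8. Cdh1, the adhesion protein E-cadherin, had a log2 difference of 1.16 with overlap. Of the tight junction genes, 15 of 16 were higher (median 0.81). The claudins Cldn3, Cldn4 and Cldn7 had differences of 1.11, 1.06 and 0.90, and Cldn1 was the exception at -0.45. Of the desmosome genes, 10 of 11 were higher (median 0.73), with the plakophilin Pkp1 separated at 1.22. The exception, the desmocollin Dsc3, had a difference of -1.90: it was 0.327 to 82.2 CPM on the high side and 0.197 to 55.5 CPM on the low side. Its 3 highest high-side libraries were the 2 lymphoid-rich ones and the library rich in Krt10, at 82.2, 61.7 and 18.5 CPM.

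Among transcription factors of epithelia, 18 of 18 were higher (median 0.93). Tfap2a, Grhl2 and Sox9 were separated, at 1.5, 1.17 and 1.18. Grhl2, a Grainyhead-like factor of epithelial junction genes, was 9.89 to 22.9 CPM on the high side and 1.74 to 7.91 CPM on the low side. Foxa1, a partner of the estrogen receptor, had a difference of 1.51 but overlapped, with 18.0 to 44.7 CPM against 2.10 to 23.3 CPM.

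The medians of the lists for the cell layers of the duct were all above 0. Of the basal genes, 21 of 21 were higher (median 0.75), and the laminin chain Lama3 was the separated one at 1.06. Of the secretory luminal genes, 13 of 13 were higher (median 0.66). Kit, a receptor of luminal progenitors, was 79.5 to 125 CPM against 34.7 to 72.7 CPM, without overlap but at a log2 difference of 0.89. Of the hormone-sensing genes, 8 of 12 were higher (median 0.61), and Areg, Tnfsf11, Greb1 and Tph1 were lower by medians at -0.27, -3.56, -0.29 and -0.54. The estrogen receptor Esr1 had a difference of 0.42 with overlap. Of the epidermal growth factor receptor family and its ligands, 6 of 10 were higher (median 0.24): the receptors Erbb2, Erbb3 and Erbb4 at 0.85, 0.78 and 0.63, and the ligands Tgfa and Egf at -0.76 and -0.16.

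The 15 lists of other tissues had 0 separated genes. Over all genes the share was 0.369%, so lists this short could hold 0 without differing from it. The B cell, T cell and node stroma lists had medians of -6.4, -4.9 and -1.8, the brown fat list -1.7 and the skeletal muscle list -0.6. The macrophage and cell cycle lists were each at -0.52, with 9 of 9 and 12 of 12 genes lower. These signs did not all hold within the lymphoid classes. Within the lymphoid-rich and lymphoid-poor libraries the cell cycle medians were 0.42 and 1.2, and the macrophage medians -0.36 and 0.067. The T cell medians there were 0.73 and 0.49, and the node stroma medians 0.44 and 0.47. Brown fat stayed lower at -1.4 and -2.9, and skeletal muscle at -1.0 and -0.43. The brown fat median was -0.44 with TMM, -0.43 with DESeq2 size factors, -0.067 ranked by Krt8 and -0.074 within 5 mg/kg. The skeletal muscle median was -0.24 with TMM, -0.26 with DESeq2 size factors, -0.23 ranked by Krt8 and 0.052 within 5 mg/kg. Brown fat genes summed to 67.2 to 2370 CPM on the high side and 472 to 2100 CPM on the low side. Within the lymphoid-rich libraries the B cell median was 0.58 and the general epithelial median 0.34, against 0.23 over all genes. The hormone-sensing and growth factor receptor medians there, 0.14 and 0.086, lay below 0.23, and the other epithelial lists lay at 0.29 to 0.59. Within the lymphoid-poor libraries the B cell and general epithelial medians were -0.61 and 2.1, against 0.34 over all genes. Several lists of other tissues lay above 0, as the epithelial lists did. The smooth muscle and pericyte list had a median of 0.53 (7 of 8 genes higher), the Schwann cell list 0.31 (7 of 7) and the adipocyte list 0.31 (16 of 18), all above the 0.24 of the growth factor receptor list. The fatty acid synthesis list went the other way, at -0.29 with 10 of 11 genes lower. Its sign was not stable: 0.7 with TMM, 0.67 with DESeq2 size factors, -0.33 within 5 mg/kg and 0.94 within 1 mg/kg. Acta2, Myh11, Tagln and Cnn1 of the smooth muscle and pericyte list are also on the basal list, so these 2 lists are not independent. The matrix and endothelium lists had 0.19 (12 of 16) and 0.17 (10 of 12). Within the lymphoid-rich libraries the smooth muscle, adipocyte, matrix and endothelium medians were 0.0028, -0.43, -0.32 and -0.12, and within the lymphoid-poor libraries the Schwann cell median was -0.43. Scaled to the reads of the adipocyte, matrix and endothelium lists, the sides held the same libraries, the all-gene median was -0.32 and 16 genes were separated, 11 of them among the 58.

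**Figure D5:**
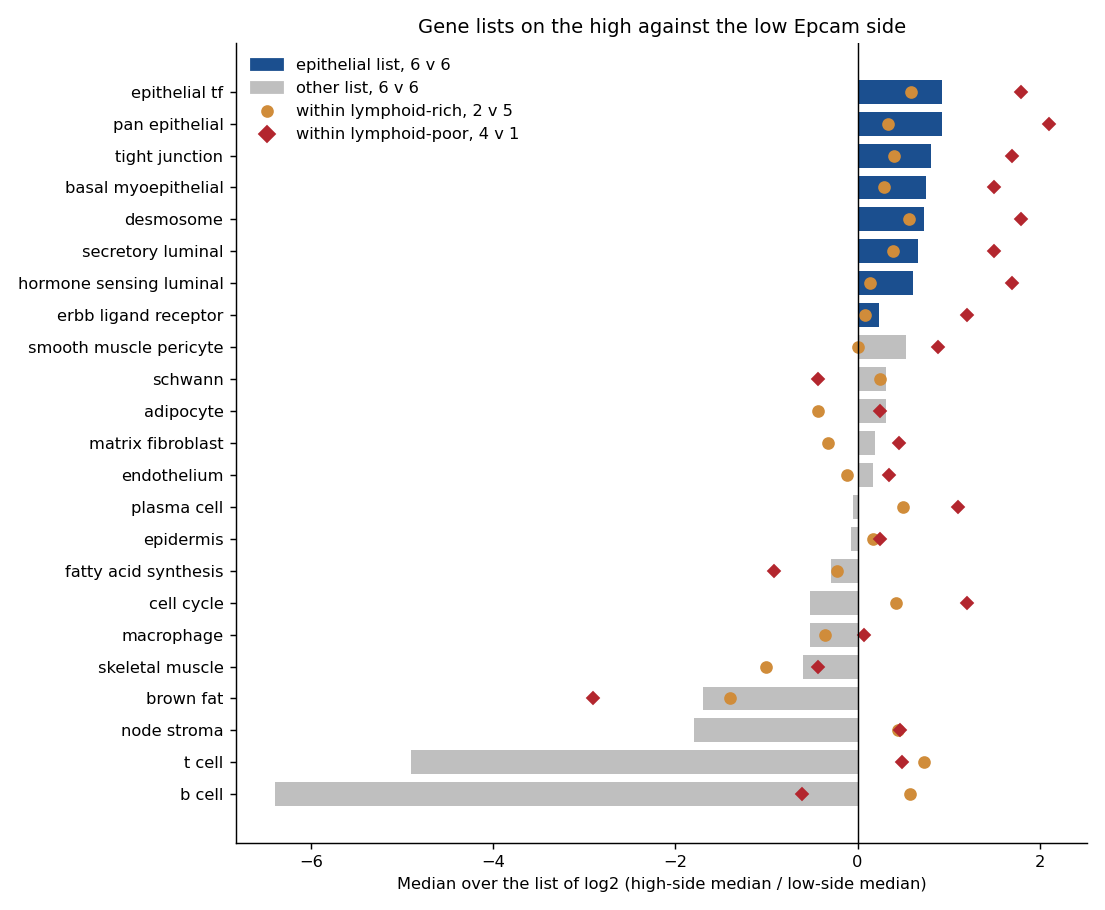
Median over each gene list of the log2 ratio of side medians (bars), with the same within lymphoid-rich libraries (circles, 2 against 5) and lymphoid-poor libraries (diamonds, 4 against 1). The 8 epithelial lists lie above 0 in all 3, but the all-gene medians within the lymphoid-rich and lymphoid-poor libraries are 0.23 and 0.34. Within the lymphoid-rich libraries the hormone-sensing and growth factor receptor lists lie below 0.23. The B cell bar at -6.4 is not matched within either lymphoid class.

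Folic acid dose fell on both sides. The high side held 2 libraries of 5 mg/kg and 4 of 1 mg/kg, and the low side the reverse, a split that Fisher's exact test did not separate from an even one (two-sided p = 0.567). Epcam was 82.5 CPM ± 34.5 (SD, n = 6) at 5 mg/kg and 92.5 CPM ± 54.9 (SD, n = 6) at 1 mg/kg, exact permutation adjusted p = 0.963 over the 4 markers. Krt8, Krt18 and Krt14 had the same adjusted p of 0.963 in that two-sided test. The split depended on the ranking gene: ranked by Krt8 or Krt18, the high side held 4 libraries of 5 mg/kg.

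With log2 Epcam CPM as a covariate, edgeR's quasi-likelihood test called 0 of 18616 genes (0%) between 5 and 1 mg/kg at an adjusted p of 0.05, with 475 genes at an unadjusted p under 0.05. limma-voom called 0, with 490. DESeq2 was run without edgeR's low-count filter and gave a p-value to 48206 genes. It called 1, Slitrk6, a neuronal membrane protein, with a log2 difference of 1.55 and an adjusted p of 0.0407. In edgeR's test Slitrk6 had a log2 difference of 1.54 ± 0.31 (SE) and an adjusted p of 0.934. It was below 5 CPM in every library. Atp6v1c2, a proton pump subunit, and ENSMUSG00000118642 followed, with log2 differences of 1.39 and 0.77, both also at an adjusted p of 0.934 by edgeR. An approximate 95% interval of a gene's dose effect in this fit had a median width of 0.527 on either side (log2). It was built from the SE with a t quantile at fewer degrees of freedom than the fit has. That interval is not adjusted for the number of genes tested.

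The dose effect was not shown to differ between the sides. The dose by side term of edgeR's quasi-likelihood test called 0 of 18616 genes (0%), with a lowest adjusted p of 0.977. Of these genes, 220 had an unadjusted p under 0.05. DESeq2, run without edgeR's low-count filter, called 0, with 621 of 48189 genes at an unadjusted p under 0.05. By edgeR, the 3 genes with the smallest unadjusted p were Tnfrsf17, Cyp4f39 and Isyna1.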

How the data were processed

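RNA was sequenced from 12 right thoracic mammary fat pads. Per the submitters' processing notes the authors used STAR, HTSeq 0.6.1 and the mm10 build, and the deposited counts are whole reads per gene for 55487 Ensembl IDs. For the annotation, the strand setting and the STAR version, the sources used here give nothing, and the library kit does not mark strand. The 5 tally lines were left out of totals (16.7 to 35.7% of reads). Symbols were matched for 55141 IDs. Members, lists and tests were chosen with earlier results of these data known.

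CPM excluded mt-Rnr1 and mt-Rnr2. Log2 folds are of side medians of CPM plus 0.1. Named genes were the 12 separated genes of largest fold, the 12 closest to Epcam, list members and, for dose, called genes or the 3 smallest p. Dose was tested with edgeR 4.0.16 (TMM, quasi-likelihood, Benjamini-Hochberg), with DESeq2 1.42.0 and limma 3.58.1 as alternatives. Some list members are not reported here. The scripts were tested on simulated data. Library pairs differed beyond sampling noise (lowest chi-square per degree of freedom 41.4 over 66 pairs).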

Additional observations from a re-analysis of the deposited data

Results flagged for a closer look

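Krt14 in 5 mg/kg replicate 4 stood far from the other 5 mg/kg libraries, at 63.2 CPM, with a gap to its neighbour of 0.691 of the group's range. That library also had the most Krt10 and Dmkn. Of the 18 groups tested, chance flags about 1 in 20.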

How the results depend on the processing

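No paired analysis was possible because the labels give no replicate numbers and the numbers used here follow accession order. The count of 58 separated genes became 14 with TMM effective library sizes, 12 with DESeq2 size factors, 28 at a mean of at least 5 CPM, 91 with no filter beyond 10 reads, 164 at 1.5-fold, 7 when ranked by Krt8 or by Krt18, 15 when ranked by Krt14 or by the geometric mean of the 4 markers, and 234 without the 2 libraries at the border. It was 153 within 5 mg/kg, 697 within 1 mg/kg, 656 within lymphoid-rich and 1572 within lymphoid-poor libraries, where fewer libraries had to separate. Leaving out 1 library gave 31 to 144. Chosen after seeing the data, 4 libraries above the upper gap (ranks 4 and 5) against 3 below the lower gap (ranks 9 and 10) gave 749, although the step between ranks 10 and 11 is wider than the upper gap, the reference-list scale 16, and leaving out the 2 libraries richest in epidermal RNA 169. The dose split reversed to 4 libraries of 5 mg/kg on the high side when ranked by Krt8 or Krt18, and the lymphoid split was 2 rich on the high side and 5 on the low side in all 8 alternatives run. DESeq2 called 1 gene by dose where edgeR called 0.

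The mean log2 difference by dose (5 minus 1 mg/kg) was near 0 for each marker, and its sign was not stable. For Epcam it was -0.0345 and became 0.0276 with TMM, -0.129 with mt-Rnr1 and mt-Rnr2 kept and -0.295 scaled to reference-list reads, and leaving out 1 library gave -0.343 to 0.231, above 0 for 5 libraries, the smallest such value being 0.00246. With mt-Rnr1 and mt-Rnr2 kept, Krt8, Krt18 and Krt14 turned from 0.0518, 0.0667 and 0.0264 to -0.043, -0.0281 and -0.0685. Scaled to reference-list reads they were -0.209, -0.194 and -0.234. Leaving out 1 library gave -0.223 to 0.381 for Krt8, -0.224 to 0.344 for Krt18 and -0.322 to 0.327 for Krt14. The causes were not tested.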
